A study of Mus musculus with 18 samples.

Results

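Alpha-arrestins are a small family of membrane adaptor proteins, and 5 of their genes were followed here in visceral fat (white adipose tissue, WAT) of diabetic mice together with Mlxip, the gene of the glucose sensor MondoA. The 6 members, Txnip, Arrdc4, Arrdc3, Arrdc2, Arrdc1 and Mlxip, were taken by symbol from the 19938 genes with a single gene symbol on the array. Each has 1 probe set, so no choice between probe sets was needed. The set was put together with the profile of Arrdc4 known, namely a higher signal in diabetes and a lower one under bezafibrate (BEZ). The values of Arrdc4 in those comparisons are therefore a description without a test.

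The study holds 18 arrays, 1 per mouse, of male wildtype C57BL/6N mice aged 5 to 6 months. The STZ, BEZ group (n = 5) received streptozotocin (STZ), a toxin of the insulin-producing beta cells, and from 2 weeks later BEZ in the chow for 8 weeks. BEZ is a fibrate that activates all peroxisome proliferator-activated receptors (PPARs). The STZ, SD group (n = 6) received STZ and standard diet (SD), and the Con, SD group (n = 7) received citrate buffer and SD. Per the labels, STZ was given at 65 mg/kg on 5 days in a row to mice 10 to 16 weeks old, and BEZ made up 0.25 or 0.5% of the chow. The methods of the study differ from the labels in the dose of STZ, in the treatment of the controls and in the share of BEZ, for which they name only the higher of the labelled shares. The labels do not say which share a given mouse received. STZ removes insulin, so high glucose and lack of insulin come together in this model. A sample is a piece of whole tissue, in which fewer cells of a type and less RNA per cell cannot be told apart.

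MondoA and its relative ChREBP (gene Mlxipl) bind glucose 6-phosphate, enter the nucleus with their partner Mlx and switch on genes at carbohydrate response elements. Txnip and Arrdc4 are the best known targets of MondoA. TXNIP, the thioredoxin-interacting protein, holds thioredoxin and limits glucose uptake by the transporters GLUT1 and GLUT4, and ARRDC4 acts on glucose uptake in a similar way. Alpha-arrestins, TXNIP among them, are known as adaptors that bring ubiquitin ligases of the NEDD4 family to membrane proteins. ARRDC3 acts on beta-adrenergic receptors and, in mice, on energy expenditure, ARRDC1 drives the budding of vesicles from the plasma membrane, and ARRDC2 is less well studied.

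The start site regions of Txnip and Arrdc4 are shown because both genes are read by MondoA through E-box type sites. Both windows run from 250 bases before to 50 bases after the annotated start, were taken from the RefSeq promoter table (GRCm38.p6) and are written 5′ to 3′ on the strand of the gene. The Txnip window is chr3:96557707-96558006 on the plus strand, and its capitals mark a GTAAACA motif and a carbohydrate response element type pair, CACGNG repeated after 5 bases. The Arrdc4 window is chr7:68749189-68749488 on the minus strand, and its capitals mark the E-box CACGTG.
Txnip: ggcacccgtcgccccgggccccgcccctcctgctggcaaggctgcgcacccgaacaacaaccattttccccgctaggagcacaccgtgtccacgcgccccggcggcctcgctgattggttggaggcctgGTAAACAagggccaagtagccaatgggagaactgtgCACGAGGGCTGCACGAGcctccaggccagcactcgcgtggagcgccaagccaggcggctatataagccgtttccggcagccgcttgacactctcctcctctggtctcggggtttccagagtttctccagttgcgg
Arrdc4: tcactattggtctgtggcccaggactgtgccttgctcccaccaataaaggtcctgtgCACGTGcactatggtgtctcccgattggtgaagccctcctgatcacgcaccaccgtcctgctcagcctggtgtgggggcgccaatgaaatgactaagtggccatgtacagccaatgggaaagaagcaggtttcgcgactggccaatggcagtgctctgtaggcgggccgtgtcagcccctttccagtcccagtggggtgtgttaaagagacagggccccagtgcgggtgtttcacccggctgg
Motifs were searched on both strands. The spaced CACGNG pair of Txnip began 85 bases before the start and was present in 16 of 32851 windows of this length (0.0487%). GTAAACA, a letter string of forkhead (FOXO) sites, began 121 bases before the start and occurred in 3.65% of windows. The E-box of Arrdc4 began 193 bases before the start, and CACGTG was present in 7.15% of windows. Arrdc4 also held 6 CCAAT boxes, Arrdc2 held 3, and Txnip and Mlxip held 2 each. CCAAT was in Arrdc3 too, and Arrdc1 had 0. Over all windows 37.4% had at least 1, and the number per window was not compared. The windows of Arrdc1, Arrdc2, Arrdc3 and Mlxip held neither the CACGNG pair nor CACGTG nor GTAAACA, and AGGTCA repeated after 1 base, the letters of a PPAR site, was in none of the members (0.0396% of windows). These matches describe letters in a short window and not binding.

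Genes of the fat cell were strongly present on all arrays: the mean log2 signal of 10 of 11 white adipocyte markers was 12.46 to 12.53 in STZ, BEZ, 10.29 to 12.50 in STZ, SD and 11.59 to 12.32 in Con, SD. Several arrays also carried RNA typical of neighbouring organs. The mean of 17 of 19 pancreas markers was 11.17, 9.44, 9.15 and 8.52 on the first 4 STZ, BEZ replicates and 13.04 on STZ, SD replicate 6, against 5.92 to 6.36 on the other arrays. The mean of 9 of 11 epididymis markers was 12.25 on STZ, SD replicate 3 and 12.39, 12.39 and 10.57 on Con, SD replicates 3, 5 and 6, the 4 arrays with a mean over 10 that are called arrays of high epididymis signal here. It was also raised, at 9.15 and 8.38, on STZ, SD replicate 4 and Con, SD replicate 4, against 5.49 to 7.15 on the other arrays. Array medians lay between 6.76 and 6.87 on the log2 scale. Groups were compared with limma, and a gene was called at an adjusted p under 0.10 (Benjamini-Hochberg over all genes).

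Txnip was higher in diabetic fat and stayed high under BEZ. Its log2 signal was 12.08, 12.51, 12.53, 12.65 and 12.81 in the STZ, BEZ mice. In STZ, SD it ran over 11.78, 12.57 and 12.76 (lowest, median, highest), and in Con, SD over 10.90, 11.54 and 12.11. All 6 STZ, SD mice lay above the mean of Con, SD and 5 of them above every Con, SD mouse. The exception is STZ, SD replicate 3, the array with high epididymis markers. The group means were 12.51 ± 0.27 in STZ, BEZ (SD, n = 5), 12.41 ± 0.37 in STZ, SD (n = 6) and 11.61 ± 0.43 in Con, SD (n = 7). STZ, SD exceeded Con, SD by 0.80 (SE 0.20, 95% interval 0.38 to 1.21, limma adjusted p = 0.0281), a 1.74-fold difference. STZ, BEZ exceeded Con, SD by 0.90 (SE 0.21, interval 0.46 to 1.34, limma adjusted p = 0.0269), with 5 of 5 mice above the mean of Con, SD. Between STZ, BEZ and STZ, SD the difference was 0.11 (interval -0.35 to 0.56, limma adjusted p = 0.923), which does not show that the levels are alike. Both calls against Con, SD stayed when any single array was left out, with differences of 0.68 to 0.92 and 0.78 to 1.01. Without the 4 arrays of high epididymis signal, a setting chosen after the values were seen, the difference of STZ, SD from Con, SD was 0.69 (limma adjusted p = 0.0581). Without the 5 arrays of high pancreas signal only 1 STZ, BEZ mouse remains. Its difference from Con, SD was 1.2 with an SE of 0.41, a larger value than in the full series but not called (limma adjusted p = 0.267).

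Markers of other tissues also differed between these groups. Mesothelium markers (mean of 6 genes) had medians of 9.13 in STZ, BEZ, 9.17 in STZ, SD and 8.31 in Con, SD, the same order as Txnip, and their deviations from the group means followed those of Txnip with r = 0.49 over the 18 mice. The part of mesothelium in the Txnip differences was not tested. Liver markers (mean of 9 genes) ran over 7.66 to 10.63 in STZ, BEZ, 7.07 to 7.75 in STZ, SD and 7.68 to 9.71 in Con, SD. Skeletal muscle markers (mean of 9 genes) ran over 6.23 to 7.24 in STZ, BEZ, 6.11 to 6.42 in STZ, SD and 6.45 to 8.20 in Con, SD, and their part was not tested. With the pancreas, epididymis and liver marker means as covariates, Txnip was 0.79 higher in STZ, SD than in Con, SD (limma adjusted p = 0.03) and 0.81 higher in STZ, BEZ than in Con, SD (limma adjusted p = 0.0193). These markers themselves differed between the groups, so the fit cannot fully separate tissue carried over from group. The same limit holds for every value given from this fit.

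**Figure D1:**
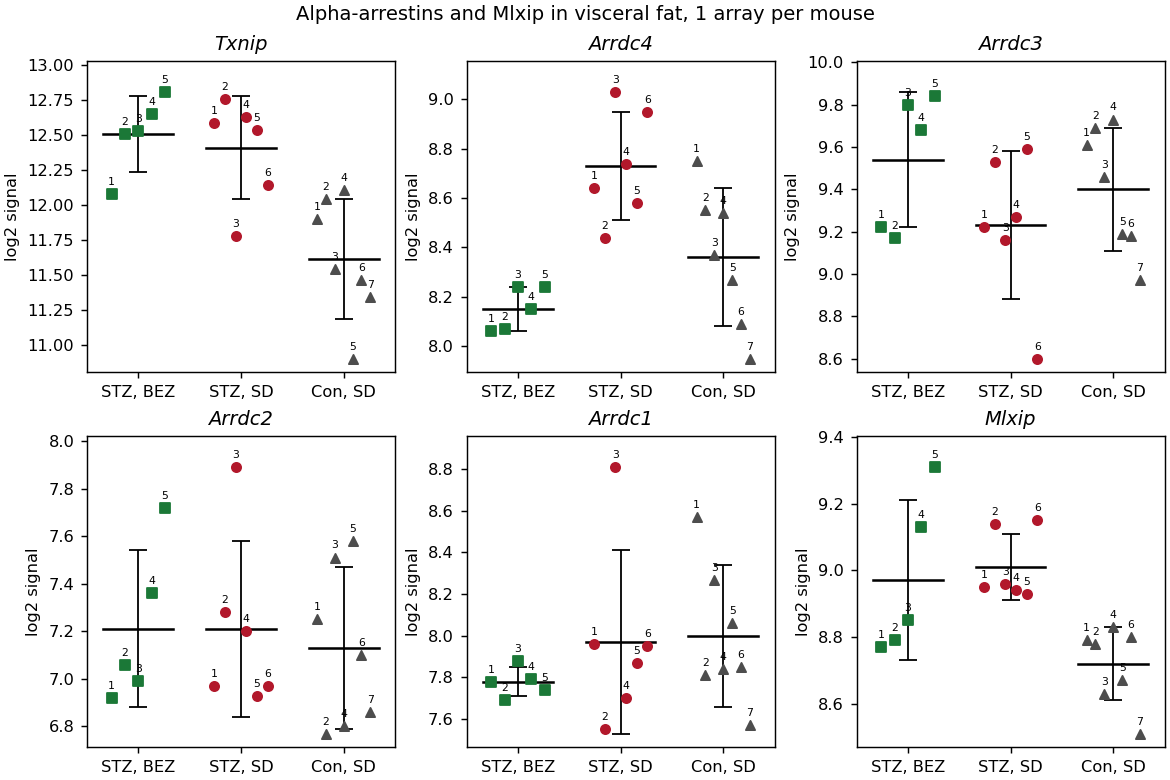
log2 signal (y axis) of the 6 members in the groups STZ, BEZ, STZ, SD and Con, SD (x axis). Each point is 1 mouse with its replicate number, the long line is the group mean and the bars are ± SD. For Arrdc4 the 5 STZ, BEZ mice lie below all STZ, SD mice, while for Txnip both STZ groups lie high.

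Arrdc4 showed another order of groups, and this order is what the set was chosen on. Its log2 signal was 8.06, 8.07, 8.24, 8.15 and 8.24 in the STZ, BEZ mice. The lowest, median and highest values were 8.44, 8.69 and 9.03 in STZ, SD and 7.95, 8.37 and 8.75 in Con, SD. All 5 STZ, BEZ mice were below all 6 STZ, SD mice, and they were within the range of Con, SD. The means were 8.15 ± 0.09 in STZ, BEZ, 8.73 ± 0.22 in STZ, SD and 8.36 ± 0.28 in Con, SD (SD). STZ, SD differed from Con, SD by 0.37 (SE 0.12, 1.29-fold) and STZ, BEZ from STZ, SD by -0.58 (SE 0.13, a ratio of 0.67). The spread of Arrdc4 among STZ, BEZ mice covered 0.17 log2 units, against 0.58 in STZ, SD and 0.80 in Con, SD. The remaining comparison was not part of the choice: STZ, BEZ differed from Con, SD by -0.21 (SE 0.13, interval -0.48 to 0.06, limma adjusted p = 0.412), and 5 of 5 STZ, BEZ mice lay below the mean of Con, SD. With single arrays left out, the differences ranged over 0.30 to 0.43 for STZ, SD against Con, SD and over -0.64 to -0.52 for STZ, BEZ against STZ, SD. Without the 4 arrays of high epididymis signal, the first of these was 0.22. The highest Arrdc4 value of the series, 9.03, was on STZ, SD replicate 3 of high epididymis signal and the next, 8.95, on STZ, SD replicate 6 of high pancreas signal. On these arrays the white adipocyte markers were the lowest of STZ, SD, at 11.55 and 10.29, against 12.46 to 12.53 in STZ, BEZ. Within groups, Arrdc4 had r = -0.47 with white adipocyte, -0.50 with fibroblast, -0.46 with endothelium, -0.39 with macrophage and -0.29 with mesothelium markers. With skeletal muscle, liver, pancreas, T and NK cell and epididymis markers r was 0.39, 0.24, 0.18, 0.08 and 0.05. What part these arrays and tissues had in the result was not tested.

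Arrdc3 did not separate the groups. The STZ, BEZ mice had 9.22, 9.17, 9.80, 9.68 and 9.84, against a lowest, median and highest value of 8.60, 9.24 and 9.59 in STZ, SD and of 8.97, 9.46 and 9.73 in Con, SD. 3 of the 5 STZ, BEZ mice lay above every STZ, SD mouse, and the other 2 were inside the range of that group. The difference of STZ, BEZ from STZ, SD was 0.31 (SE 0.19, interval -0.08 to 0.70, limma adjusted p = 0.614) and that of STZ, SD from Con, SD was -0.18 (interval -0.53 to 0.18, limma adjusted p = 0.621). The lowest value, 8.60, belongs to STZ, SD replicate 6, whose pancreas markers were the highest of the series and whose white adipocyte markers, at 10.29, were the lowest.

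Neither Arrdc1 nor Arrdc2 separated the groups. Arrdc1 was 7.78, 7.69, 7.88, 7.79 and 7.74 in STZ, BEZ, with a lowest, median and highest value of 7.55, 7.91 and 8.81 in STZ, SD and 7.57, 7.85 and 8.57 in Con, SD. The 5 STZ, BEZ mice covered 0.19 log2 units, against 1.26 in STZ, SD and 1.0 in Con, SD. In STZ, SD the 8.81 is 1 array of high epididymis signal, and the next mouse was at 7.96. Arrdc1 differed by -0.02 between STZ, SD and Con, SD (limma adjusted p = 0.96) and by -0.20 between STZ, BEZ and STZ, SD (interval -0.60 to 0.20, limma adjusted p = 0.798). Arrdc2 was 6.92, 7.06, 6.99, 7.36 and 7.72 in STZ, BEZ, with 6.93, 7.09 and 7.89 in STZ, SD and 6.77, 7.10 and 7.58 in Con, SD as lowest, median and highest. The groups overlapped throughout, with a difference of 0.08 for STZ, SD against Con, SD (interval -0.30 to 0.46, limma adjusted p = 0.854) and of 0.00 for STZ, BEZ against STZ, SD (interval -0.41 to 0.42, limma adjusted p = 0.999). Arrdc2 depended on the tissue markers, however. With the pancreas, epididymis and liver marker means as covariates it was 0.46 higher in STZ, SD than in Con, SD (limma adjusted p = 0.104) and 0.55 higher in STZ, BEZ than in Con, SD (limma adjusted p = 0.0524, a call), against 0.09 without the covariates.

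The highest Arrdc1 and Arrdc2 values of STZ, SD, 8.81 and 7.89, were both on replicate 3, the STZ, SD array of high epididymis signal. In Con, SD the 3 arrays of high epididymis signal had Arrdc2 at 7.10 to 7.58, against 6.77 to 7.25 on the other 4, and Arrdc1 at 7.85 to 8.27, against 7.57 to 8.57. Txnip ran the other way, at 10.90 to 11.54 on those 3 Con, SD arrays, against 11.34 to 12.11 on the other 4. What part tissue of the epididymis had in these levels was not tested.

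**Figure D2:**
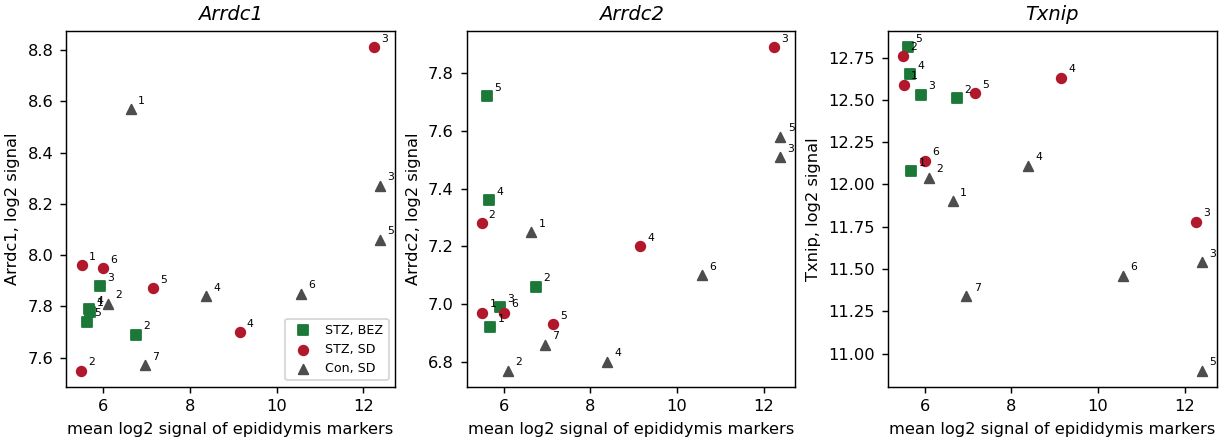
log2 signal of Arrdc1, Arrdc2 and Txnip (y axes) against the mean log2 signal of the epididymis markers on the same array (x axis), 1 point per mouse with its replicate number, in the groups STZ, BEZ, STZ, SD and Con, SD. STZ, SD replicate 3, at 12.25 on the x axis, has the highest Arrdc1 and Arrdc2 and the lowest Txnip of its group.

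Mlxip, the gene of MondoA itself, was higher in diabetic fat. Its values were 8.77, 8.79, 8.85, 9.13 and 9.31 in STZ, BEZ. The lowest, median and highest were 8.93, 8.95 and 9.15 in STZ, SD and 8.51, 8.78 and 8.83 in Con, SD. Each of the 6 STZ, SD mice lay above each of the 7 Con, SD mice. The difference was 0.29 (SE 0.09, interval 0.11 to 0.48, limma adjusted p = 0.0609), or 1.23-fold. The call was lost without Con, SD replicate 7 (0.26, limma adjusted p = 0.127) and without STZ, SD replicate 2 (0.27, limma adjusted p = 0.137). It was also lost without the 4 arrays of high epididymis signal (0.29, limma adjusted p = 0.199) and with array weights (0.25, limma adjusted p = 0.122). A block for replicate numbers, which pair no mice, gave 0.26 (limma adjusted p = 0.188). The size of the difference was nearly the same in each. Mlxip also did not pass an adjusted p under 0.05 or a fold minimum of 1.5. With the pancreas, epididymis and liver marker means as covariates the difference was 0.46 (limma adjusted p = 0.0234). STZ, BEZ differed from STZ, SD by -0.04 (interval -0.25 to 0.16, limma adjusted p = 0.934) and from Con, SD by 0.25 (interval 0.05 to 0.45, limma adjusted p = 0.159). Without the 5 arrays of high pancreas signal, the 1 remaining STZ, BEZ mouse, replicate 5, was 0.59 above Con, SD, a value of 1 mouse and not of the group.

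The STZ, BEZ mice were split: replicates 4 and 5 were among the highest of the series and replicates 1 to 3 were below all STZ, SD mice. The pancreas marker means of replicates 1 to 5, at 11.17, 9.44, 9.15, 8.52 and 6.04, ran in exactly the opposite order to their Mlxip values. STZ, BEZ replicate 5 also had the highest liver markers (10.63, against 7.66 to 8.10 in the other STZ, BEZ mice), and the liver marker mean followed Mlxip within groups with r = 0.70 over the 18 mice. For the pancreas marker mean this r was -0.15. STZ, SD replicate 6, with the highest pancreas markers of the series (13.04), had the highest Mlxip of its group (9.15). What part these tissues had in the split was not tested.

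Set against all genes, the calls of the members read as follows. In STZ, SD vs Con, SD, 10.3% of the 19938 genes were called, 5.82% higher and 4.52% lower, and of the 6 members 3 were called higher (Txnip, Mlxip and Arrdc4). In the same comparison 1.62% of genes had groups that did not overlap, and so did Mlxip. The share called in STZ, BEZ vs STZ, SD was 0.707%, 0.682% higher and 0.0251% lower, and Arrdc4 was 1 of the 5 genes called lower. Groups did not overlap for 1.49% of genes, Arrdc4 among them. Nothing is read from the calls of Arrdc4 in these comparisons, since it was selected for them. For STZ, BEZ vs Con, SD the share was 5.95%, with 4.57% higher and 1.38% lower, and Txnip alone of the members was called, as higher. There, 6.8% of genes had groups without overlap and none of the members did. An unadjusted p under 0.05 was reached by 20.3% of genes in STZ, SD vs Con, SD, by 10.2% in STZ, BEZ vs STZ, SD and by 18.3% in STZ, BEZ vs Con, SD. The median difference over all genes was -0.028, 0.008 and -0.006 in the order in which the comparisons are given here. All comparisons with a group in common share its mice.

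**Figure D3:**
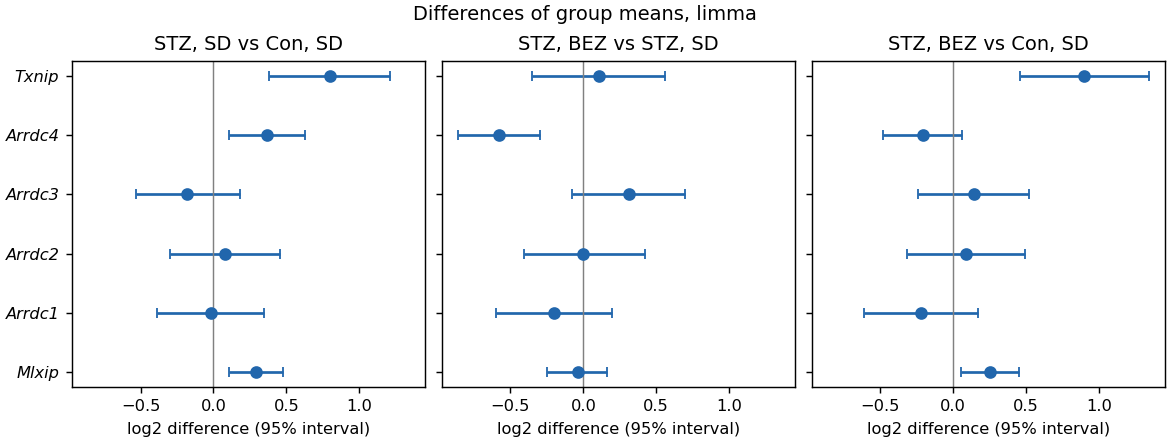
Differences of group means of the 6 members on the log2 scale (x axis) in 3 comparisons, from limma, with 95% intervals as bars. Txnip stands at 0.80 and 0.90 in the panels against Con, SD, and Arrdc4 at -0.58 in STZ, BEZ vs STZ, SD.

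Of the partners and rivals of MondoA, Myc had the clearest difference. Of the 10 genes of the Mlx and Max network, which share E-box type sites, 2 were called higher and 1 lower in STZ, SD vs Con, SD (median difference 0.09, against -0.028 over all genes). Of all genes, 5.82% were called higher and 4.52% lower in that comparison. Myc, a transcription factor that pairs with Max and drives growth, was 8.89 ± 0.61 in STZ, SD and 7.82 ± 0.35 in Con, SD, a rise of 1.08 (SE 0.25, limma adjusted p = 0.0207), and remained 0.93 above Con, SD in STZ, BEZ (limma adjusted p = 0.0646). The Max partner Mxi1 rose by 0.26 and its relative Mxd4 fell by 0.19, with limma adjusted p = 0.0947 and 0.0948. Without single arrays, Mxi1 lost the call in 13 and Mxd4 in 14 of 18 cases, and Myc lost it in STZ, BEZ vs Con, SD in 6. Mlx, the partner that MondoA needs, differed by -0.05 in STZ, SD vs Con, SD. Mlxipl, the gene of ChREBP, differed by 0.17 in that comparison, by 0.55 in STZ, BEZ vs STZ, SD and by 0.72 in STZ, BEZ vs Con, SD, without a call. Under BEZ, limma called none of the 10 genes against STZ, SD, and 1 had an unadjusted p under 0.05 (10.2% of all genes did).

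Among other genes of the carbohydrate response, more were called lower than higher in diabetic fat, where Txnip was higher. Of 22 measured genes known to follow ChREBP or MondoA, without the members, 9 were called lower and 2 higher in STZ, SD vs Con, SD, with a median difference of -0.62. Over all genes 4.52% were called lower and 5.82% higher, with a median of -0.028. Under BEZ 18 of the 22 differences from STZ, SD were positive (median 0.85) and 2 genes were called, both higher, while 11 had an unadjusted p under 0.05, against 0.707% called and 10.2% at that level over all genes. Txnip had 0.80 and 0.11 in these comparisons. Many of these genes make fatty acids and also answer to insulin.

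The genes called lower included Fasn, the fatty acid synthase, at 10.87 ± 1.07 in STZ, SD and 12.51 ± 0.34 in Con, SD (-1.64, limma adjusted p = 0.0206). Scd1, the stearoyl-CoA desaturase, was at 12.03 ± 1.02 in STZ, SD and 13.61 ± 0.05 in Con, SD (-1.58, limma adjusted p = 0.0112). In STZ, BEZ it stood at 13.68 ± 0.11, which is 1.65 above STZ, SD (limma adjusted p = 0.0621). Gpd1, the glycerol 3-phosphate dehydrogenase, fell to 10.36 ± 0.57 in STZ, SD, against 11.59 ± 0.51 in Con, SD, and was 1.87 higher in STZ, BEZ than in STZ, SD (limma adjusted p = 0.00846). Angptl8, Elovl6, Me1, Pfkfb3, Pnpla3 and Thrsp made up the rest of the 9, with differences of -2.09 to -1.02. With single arrays left out, Pfkfb3 lost its call in 6 of 18 cases and Pnpla3 without STZ, SD replicate 2.

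The pair called higher in STZ, SD held Acacb, the acetyl-CoA carboxylase that restrains fatty acid oxidation, and Khk, the fructokinase, with differences of 1.12 and 0.37. Acacb was higher still in STZ, BEZ, at 10.52 ± 0.05, against 8.54 ± 0.58 in Con, SD (1.98, limma adjusted p = 0.00864). Without Con, SD replicate 7 neither Acacb nor Khk was called in STZ, SD vs Con, SD, and 0 of the 22 genes were then called higher. Either call was also lost without STZ, SD replicate 1, 2 or 4, and that of Khk without Con, SD replicate 2. The count called lower in that comparison was 7 to 10 with single arrays left out and 5 without the 4 arrays of high epididymis signal. The count called higher in STZ, BEZ vs STZ, SD was 1 without STZ, SD replicate 2 and 8 without STZ, SD replicate 1, and Scd1 lost its call there in 7 of 18 cases. With the pancreas, epididymis and liver marker means as covariates, 16 of the 22 genes were called higher in this comparison. Calls rose over all 19938 genes as well. Those called higher numbered 1956 with the covariates and 659 without STZ, SD replicate 1, against 136 on all arrays without covariates. STZ, SD replicate 6, where white adipocyte markers were lowest, is part of all these means.

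**Figure D4:**
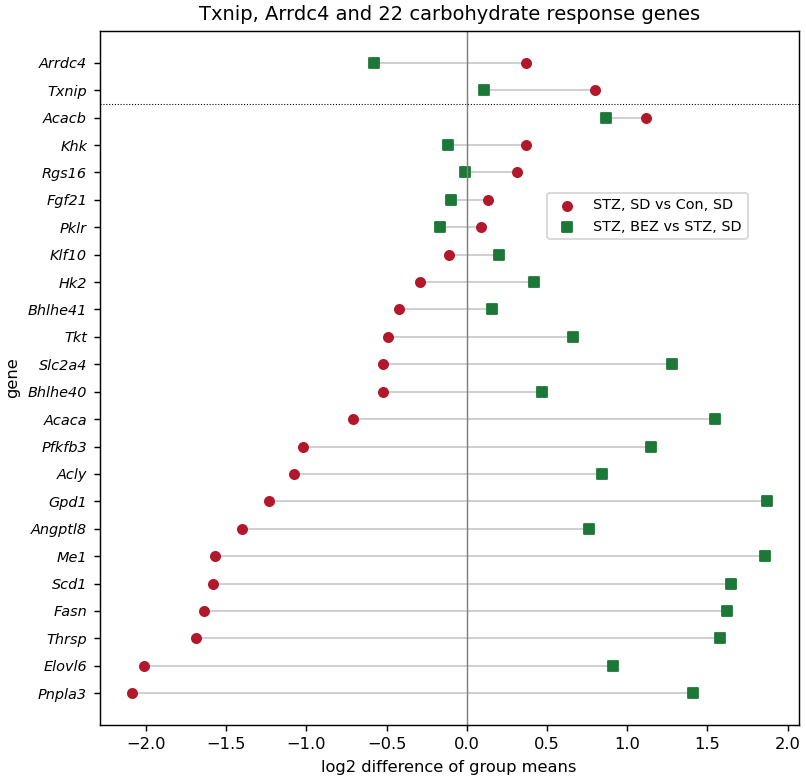
Differences of group means on the log2 scale (x axis) for Arrdc4, Txnip and 22 carbohydrate response genes (y axis), circles for STZ, SD vs Con, SD and squares for STZ, BEZ vs STZ, SD, which share the STZ, SD mice. Txnip lies to the right in the first comparison, whereas Fasn, Scd1 and Gpd1 lie at -1.64, -1.58 and -1.23 there and at 1.62, 1.65 and 1.87 in the other.

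Genes of glucose entry and of the supply of glucose 6-phosphate, the molecule that MondoA senses, were mostly not called. Among 12 measured genes only Hk1, the hexokinase that makes glucose 6-phosphate in most tissues, was called, against 10.3% of all genes in STZ, SD vs Con, SD. Hk1 was 12.43 ± 0.15 in STZ, SD and 12.13 ± 0.17 in Con, SD (0.30, limma adjusted p = 0.0452). The call was lost without STZ, SD replicate 2 and in 6 of 14 other alternatives, among them those without the arrays of high pancreas or of high epididymis signal. The insulin-regulated transporter gene Slc2a4 (GLUT4) differed by -0.52 in STZ, SD vs Con, SD and by 1.28 in STZ, BEZ vs STZ, SD without a call, and the transporter gene Slc2a1 (GLUT1) by 0.05 and 0.07. BEZ mice showed 0 limma calls of 12 against STZ, SD, where 0.707% of all genes were called, and 4 were at an unadjusted p under 0.05 (10.2% of all genes). Against Con, SD they showed 0 limma calls (5.95% of all genes), with 0 at an unadjusted p under 0.05 (18.3%).

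Of the thioredoxin system, with which TXNIP interacts, 1 of 12 measured genes was called in STZ, SD vs Con, SD and 2 in STZ, BEZ vs Con, SD, all higher. The shares called higher over all genes were 5.82% and 4.57%. Txn1, the cytosolic thioredoxin itself, differed by -0.04, 0.03 and -0.01 in the 3 comparisons. The mitochondrial genes Txnrd2, a thioredoxin reductase, and Prdx3, a peroxiredoxin, were higher in STZ, BEZ than in Con, SD by 0.40 (limma adjusted p = 0.0383) and 0.52 (limma adjusted p = 0.0432). Both lost the call without STZ, BEZ replicate 2, and Prdx3 also without replicate 5. Ddit4, a stress-induced inhibitor of mTORC1 that binds TXNIP, was 8.40 ± 0.56 in STZ, SD and 7.75 ± 0.10 in Con, SD (0.64, limma adjusted p = 0.0912, lost in 12 of 18 cases with 1 array left out). No gene of the 12 was called by limma between STZ, BEZ and STZ, SD (0 of 12, against 0.707% of all genes), and 4 had an unadjusted p under 0.05 (10.2% of all genes).

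Ubiquitin ligases of the NEDD4 family and their adaptors, the partners of alpha-arrestins, showed 0 calls of 11 by limma, both in STZ, SD vs Con, SD and under BEZ against STZ, SD, with 2 and 3 genes at an unadjusted p under 0.05. Over all genes, 20.3% and 10.2% reached that level, and 10.3% and 0.707% were called. Against Con, SD, the STZ, BEZ mice had the ligase gene Smurf1 0.64 higher (limma adjusted p = 0.0629) and the adaptor gene Ndfip1 0.32 lower (-0.32, limma adjusted p = 0.0678). These calls were lost in 7 and 8 of 18 cases with 1 array left out. Among 16 other arrestin-fold and vesicle genes, 1 was called higher and 2 lower in STZ, SD vs Con, SD, against 5.82% and 4.52% of all genes. Tsg101, the ESCRT protein that ARRDC1 recruits, fell by 0.25 (limma adjusted p = 0.0718), the retromer gene Vps29 fell by 0.38 (limma adjusted p = 0.0846) and the ESCRT ATPase gene Vps4b rose by 0.17 (limma adjusted p = 0.0733). Each of these was lost in 8 to 11 of 18 cases. Arrdc5, the remaining alpha-arrestin gene, differed by -0.24, 0.00 and -0.24 in the 3 comparisons, and the beta-arrestin genes Arrb1 and Arrb2 by 0.20 and 0.01 in STZ, SD vs Con, SD. With BEZ, limma called 0 of the 16 against STZ, SD and 0 against Con, SD (0.707% and 5.95% of all genes). At an unadjusted p under 0.05 there were 1 and 0 (10.2% and 18.3% of all genes).

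Of 10 measured cargo proteins of alpha-arrestins, 1 gene was called, against 10.3% of all genes in STZ, SD vs Con, SD. The share over all genes in STZ, BEZ vs Con, SD was 5.95%. The called gene was Insr, the insulin receptor gene, in both comparisons. It was 10.48 ± 0.23 in STZ, SD and 9.88 ± 0.12 in Con, SD, a rise of 0.59 (SE 0.11, limma adjusted p = 0.00784), and 0.64 higher in STZ, BEZ than in Con, SD (SE 0.11, limma adjusted p = 0.00864). The STZ, BEZ and STZ, SD groups differed by 0.04 (limma adjusted p = 0.948), so that the group order of Insr was like that of Txnip. Both calls of Insr stayed with any single array left out. Between STZ, BEZ and STZ, SD there were 0 limma calls among the 10, with 3 at an unadjusted p under 0.05 (0.707% and 10.2% of all genes).

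Among 19 measured genes that glucocorticoids or FOXO factors induce, other known inducers of Txnip, Arrdc2 and Arrdc3, 15 differences were positive in STZ, SD vs Con, SD (median 0.20). In that comparison 2 genes were called higher and 1 lower, against 5.82% and 4.52% of all genes. There 7 of the 19 had an unadjusted p under 0.05 (20.3% of all genes). Pdk4, the kinase that shuts off pyruvate dehydrogenase and is also a PPAR target, had the largest difference of the list in all 3 comparisons. It was 10.44 ± 0.47 in STZ, BEZ, 9.29 ± 0.58 in STZ, SD and 8.34 ± 0.61 in Con, SD. STZ, BEZ exceeded Con, SD by 2.10 (limma adjusted p = 0.00305), and STZ, SD exceeded Con, SD by 0.95 (limma adjusted p = 0.0653, lost in 5 of 18 cases). The sestrin gene Sesn1 rose by 0.65 in STZ, SD (limma adjusted p = 0.0207) while Sesn3, a sestrin gene known as a FOXO target, fell by 0.46 (limma adjusted p = 0.0442, lost without STZ, SD replicate 2 or 4). Klf9, a glucocorticoid target, was 0.70 higher in STZ, BEZ than in Con, SD (limma adjusted p = 0.0805, lost in 7 of 18 cases). Fkbp5 and Tsc22d3, standard glucocorticoid targets, differed by 0.33 and -0.09 in STZ, SD vs Con, SD without a call. For STZ, BEZ against STZ, SD limma called 0 of the 19 (0.707% of all genes), and 3 had an unadjusted p under 0.05 (10.2% of all genes). For STZ, BEZ against Con, SD it called 2 higher and 0 lower (4.57% and 1.38% of all genes). At an unadjusted p under 0.05 there were 10 of the 19 (18.3% of all genes).

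The calls of these list genes also depended on the arrays that carried other tissue. Without the 4 arrays of high epididymis signal, Ddit4, Hk1, Me1, Mxd4, Mxi1, Pfkfb3, Pnpla3, Thrsp and Vps4b were no longer called in STZ, SD vs Con, SD, nor Scd1 in STZ, BEZ vs STZ, SD, nor Klf9, Myc, Ndfip1, Prdx3, Smurf1 and Txnrd2 in STZ, BEZ vs Con, SD. Without the 5 arrays of high pancreas signal, which leaves 1 STZ, BEZ mouse, Ddit4, Hk1, Khk, Mxd4, Mxi1, Pdk4, Pfkfb3, Tsg101, Vps29 and Vps4b were not called in STZ, SD vs Con, SD. In the same setting Gpd1 and Scd1 lost the call in STZ, BEZ vs STZ, SD. Acacb, Klf9, Myc, Ndfip1, Prdx3, Smurf1 and Txnrd2 lost it in STZ, BEZ vs Con, SD. With 1 mouse left in STZ, BEZ, these losses cannot be told from a lack of mice. Fasn, Scd1, Gpd1, Angptl8, Elovl6, Insr, Myc and Sesn1 were called in STZ, SD vs Con, SD under both of these settings and with any single array left out.

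Differences between mice of the same group gave a view of the members that the selection did not use. After the group means were removed, Txnip and Arrdc3 varied together over the 18 mice: Pearson's r was 0.70 (permutation p = 0.00256, adjusted p = 0.0384 over the 15 pairs of members) and Spearman's rho was 0.78 (permutation p = 0.00068, adjusted p = 0.0102). Without Con, SD replicate 5 and STZ, SD replicate 3, the 2 mice farthest from the median of Txnip, r was 0.82. In alternatives chosen after the values were seen, it ranged over 0.67 to 0.77 with single mice left out, within Con, SD it was 0.85, and it was 0.76 without the arrays of high pancreas signal and 0.85 without those of high epididymis signal. The arrays of low Txnip and Arrdc3 included STZ, SD replicate 6 (deviations of -0.27 and -0.62) and STZ, BEZ replicate 1 (-0.44 and -0.32), which had the highest pancreas markers of their groups. Tissue markers were also set against both genes within groups. Their r with Txnip and Arrdc3 was 0.69 and 0.44 for endothelium, 0.54 and 0.43 for macrophage and 0.44 and 0.55 for white adipocyte markers. It was 0.49 and 0.46 for mesothelium, 0.53 and 0.35 for skeletal muscle, 0.51 and 0.42 for liver and 0.45 and 0.38 for fibroblast markers. Pancreas markers had -0.36 and -0.67, epididymis markers -0.61 and -0.17 and T and NK cell markers 0.01 and -0.48. Their part in the correlation was not tested. Txnip and Arrdc3 were the only pair to pass an adjusted p of 0.05.

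Txnip and Arrdc4, both MondoA targets, had r = 0.15 over the same mice (permutation p = 0.627, adjusted p = 0.783) and rho = 0.21 (permutation p = 0.45, adjusted p = 0.676). Without the same 2 mice r was 0.38, and within the 7 Con, SD mice it was 0.69 (permutation p = 0.0857). In STZ, SD replicate 3 the genes deviated in opposite directions, Txnip by -0.63 and Arrdc4 by 0.30. Arrdc4 and Arrdc1 had r = 0.69 (permutation p = 0.00681, adjusted p = 0.0511) and rho = 0.46 (permutation p = 0.0998, adjusted p = 0.362). Without STZ, SD replicate 3 and Con, SD replicate 1, r of this pair was 0.47.

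**Figure D5:**
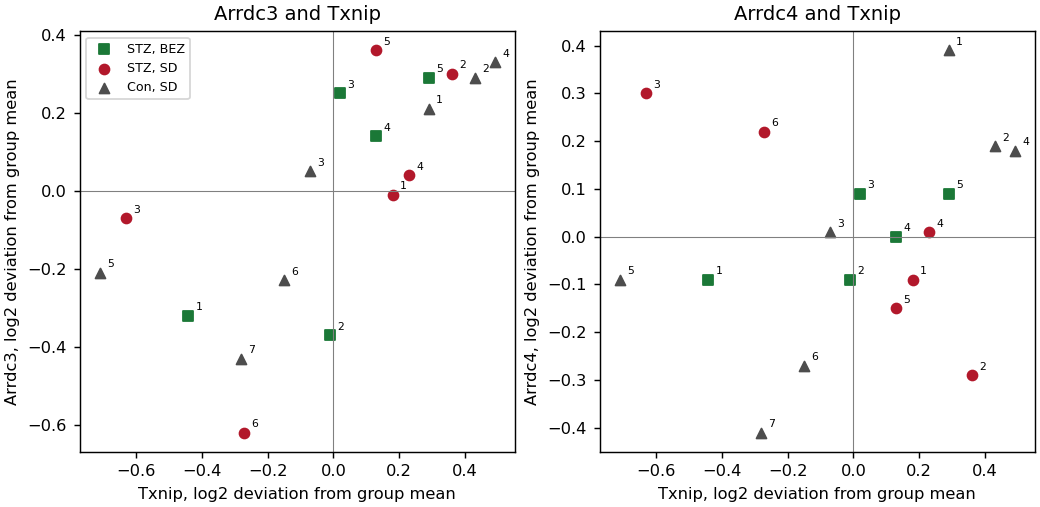
Deviation from the group mean in log2 units of Arrdc3 (left panel, y axis) and Arrdc4 (right panel, y axis) against that of Txnip (x axes), 1 point per mouse with its replicate number, in the groups STZ, BEZ, STZ, SD and Con, SD. Arrdc3 rises with Txnip (r = 0.70). For Arrdc4 and Txnip r was 0.15 over all mice and 0.69 among the 7 Con, SD mice (permutation p = 0.0857).

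The genes whose log2 signal was most like that of Arrdc4 over the 18 arrays were Id2 (Pearson's r = 0.86), Etv6 (0.84), Med18 (0.83), Lin7c (0.82) and Sh3d19 (0.82). Id2, an inhibitor of helix-loop-helix factors, had means of 10.19 in STZ, BEZ, 10.65 in STZ, SD and 10.29 in Con, SD. Etv6 was also among the most like when group means were removed (0.83), together with Blnk (0.85), Samd14 (0.84), Rny1 (0.82) and Cep97 (0.82). For Txnip the nearest over the arrays were Zcchc4 (0.94), Eed, Polr3gl, Tcp11l2 and Zfp36l1 (0.93 each), and of the members Mlxip (0.73). Tcp11l2 was again among the nearest to Txnip within groups (0.88), beside Nr2f1 (0.90), Clec2d (0.89), Tor3a (0.88) and Arhgap10 (0.86). These genes are the top of 19938 and share arrays and tissue make-up with the members, so the values are a description.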

How the data were processed

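Visceral fat of 18 mice was hybridised to Affymetrix Gene ST arrays for the mouse. Per the labels, the authors ran robust multi-array averaging (RMA) in Expression Console 1.2. The deposited log2 signals cover 35556 probe sets, and 0 columns were left out. Of these probe sets 21789 carried 1 gene symbol in the platform's annotation, and for each of 19938 genes the one of highest mean was used. No filter was set, since no detection level is given. The number of arrays limits the precision. No array was a copy of another (highest correlation 0.9908).

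All arrays entered 1 limma fit (limma 3.58.1, R 4.3.3). Benjamini-Hochberg adjustment ran over the 19938 genes, and 0.10 was the threshold of a call, as in the study, which used SAM. The fit was tested on simulated data. Per the labels, replicates are separate mice. Deviations of members were correlated with 100000 permutations within groups.

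Members and gene lists were chosen with earlier results of these data known. Named genes are the 6 members, up to 4 called genes of each list by p-value and the 5 genes most like Arrdc4 and like Txnip. The other called genes of the carbohydrate list, Slc2a1, Slc2a4, Mlx, Mlxipl, Txn1, Arrdc5, Arrb1, Arrb2, Fkbp5 and Tsc22d3 were chosen after their values were seen. Alternatives were a stricter p, a fold minimum, other probe set rules, a filter on dim genes, 2 scalings, a variance trend, array weights, fits on 2 groups, a replicate block, tissue markers as covariates, and arrays left out. Sequences are from RefSeq (GRCm38.p6), which matched all 6 members.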

Additional observations from a re-analysis of the deposited data

Results flagged for a closer look

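Of 18 sets of values (6 members in 3 groups), 2 held an array far from the rest of its group by Dixon's criterion, where chance gives about 1 in 20. Arrdc1 was 8.81 on STZ, SD replicate 3, and the next mouse of the group was at 7.96. Arrdc2 was 7.89 on the same array, and the next mouse was at 7.28. This array had an epididymis marker mean of 12.25, and its part in these values was not tested. Without this array Arrdc2 differed by -0.06 between STZ, SD and Con, SD, and Arrdc1 by -0.19.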

How the results depend on the processing

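The number of members called in STZ, SD vs Con, SD, 3 in the report, was 1 at an adjusted p under 0.05, with a fold minimum of 1.5, with array weights, with the replicate block and without the arrays of high epididymis signal, and 1 to 3 with single arrays left out. The 3 include Arrdc4, which was selected for this comparison, so its call is a description. For STZ, BEZ vs STZ, SD the count of 1 is Arrdc4 alone, which was also selected for this comparison, so the count is a description and not a test. It became 0 at an adjusted p under 0.05, with the fold minimum, on all probe sets, with array medians set to a common value, on arrays of the 2 groups only, with the replicate block, and without the arrays of high epididymis signal. With single arrays left out it was 0 to 1 (0 in 11 of 18). The count of 1 in STZ, BEZ vs Con, SD was 2 with tissue markers as covariates (Txnip and Arrdc2), 0 with the replicate block and 1 with each array left out. Without the arrays of high pancreas signal 1 STZ, BEZ mouse remains, so no count of members is given for the comparisons of that group. The replicate numbers pair no mice, so the block, with differences for Txnip of 0.75 and 0.81 from Con, SD in STZ, SD and STZ, BEZ, is given only as a value. Arrdc4 in STZ, SD vs Con, SD was 0.22 to 0.52 over these settings and in STZ, BEZ vs STZ, SD -0.74 to -0.45. The -0.45 is without the arrays of high pancreas signal and rests on 1 STZ, BEZ mouse. The causes of these ranges were not tested. The correlation of Txnip and Arrdc4 was 0.02 to 0.69 and 0.05 to 0.40 with single mice left out.

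Directions turned only among differences that were not called. In STZ, SD vs Con, SD, Arrdc1 was 0.10 with tissue markers as covariates and 0.07, 0.02, 0.06 and 0.03 without Con, SD replicate 1 or 3 or STZ, SD replicate 2 or 4, while with single arrays left out Arrdc1 ranged over -0.19 to 0.07 and Arrdc2 over -0.06 (without STZ, SD replicate 3) to 0.16. Under BEZ against STZ, SD, Txnip was -0.04 with array weights and -0.02 without the arrays of high epididymis signal or without STZ, SD replicate 3. There Arrdc2 was -0.03 with the replicate block and -0.12 to 0.14 without single arrays (-0.12, -0.05, -0.04, -0.04 and -0.03 where turned), and Mlxip was 0.32 without the arrays of high pancreas signal, which leaves 1 STZ, BEZ mouse, and 0.01 and 0.00 without STZ, BEZ replicate 1 or 2 (-0.13 to 0.01 over all arrays). Against Con, SD, Arrdc3 in STZ, BEZ was -0.03 with the replicate block and Arrdc2 -0.04 without STZ, BEZ replicate 5 (range -0.04 to 0.16). Arrdc2 lies below the filter on dim genes and has no value under it. All genes called higher and lower in STZ, SD vs Con, SD numbered 1161 and 902 in the report. Over the alternatives the lowest counts were 247 and 236. The highest, 2827 and 1437, are from the fit on all 35556 probe sets and count probe sets, not genes. In STZ, BEZ vs STZ, SD the counts were 2 to 1956 and 0 to 1127, against 136 and 5. In STZ, BEZ vs Con, SD they were 2360 and 1444 with array weights, against 912 and 275. With single arrays left out they were 338 to 1584 and 77 to 520 in that comparison.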

Other observations

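Polr3gl, a subunit gene of RNA polymerase III and 1 of the 5 genes most like Txnip over the 18 arrays (Pearson's r = 0.93), is the next gene on chromosome 3. It lies at chr3:96577872-96594181 (GRCm38.p6), 16014 bases beyond the end of Txnip, with 0 annotated genes starting in between. Its mean log2 signal was 8.50 in STZ, BEZ, 8.43 in STZ, SD and 7.76 in Con, SD, and the differences from Con, SD were 0.74 and 0.67. Txnip had 12.51, 12.41 and 11.61 in the same groups.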
